A study of Mus musculus with 2 samples.

Results

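Cxcl2, Cxcl3 and Csf2 encode secreted factors that act on myeloid cells. The rows of these 3 genes, of the 32285 in the count matrices, were read in 2 single-cell libraries of cells labelled gamma-delta T lymphocytes. Both libraries came from C57BL/6J mice aged 18 to 20 weeks: IEL from normal colon tissue and TIL from colon tumor. No treatment, transgene or sort is named for either, the protocol text speaks of tumour tissue for both, and the number of animals is not given. The members were chosen with their levels in these libraries known, so every comparison of them is a description with no test. With 1 library per group there is no replicate check, and intervals are exact 95% intervals that cover counting error only.

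CXCL2 and CXCL3 are CXC chemokines that bind CXCR2, the receptor through which neutrophils follow a chemokine gradient into tissue. They are made by activated macrophages, neutrophils, epithelium and some lymphocytes, and their genes are switched on quickly by NF-kappaB signalling. Csf2 encodes GM-CSF, a cytokine that T cells and innate lymphoid cells make and that supports the survival and activation of macrophages, dendritic cells and granulocytes. IL-17, which some gamma-delta T cells secrete, is known to induce signals for neutrophils in tissue.

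In the GENCODE M21 annotation of GRCm38 (mm10), Cxcl3 lies on the plus strand at chr5:90786103-90789600 and Cxcl2 at chr5:90903871-90905938. Their relative Cxcl1 lies between them at chr5:90891241-90893115, with Cxcl5 at chr5:90759360-90761624 and Ppbp at chr5:90768518-90770063 in the same cluster. Csf2 lies apart on the minus strand at chr11:54247271-54249667, next to Il3 at chr11:54265303-54267277. The 150 bases that end just before the first annotated transcript start of each gene are shown because Cxcl2 and Cxcl3 were found together in T cells, while their neighbour Cxcl1 was rare there and Csf2 went the other way between libraries. The sequences are those of RefSeq, build GRCm38.p6, 5′ to 3′ on the strand of the gene. Capitals mark matches on either strand to an NF-kappaB type motif (3 G, any 3 bases, 2 T and 2 C), an AP-1 type motif (TGANTCA) or a TATA motif (TATAAA).
Cxcl2, chr5:90903721-90903870, plus strand: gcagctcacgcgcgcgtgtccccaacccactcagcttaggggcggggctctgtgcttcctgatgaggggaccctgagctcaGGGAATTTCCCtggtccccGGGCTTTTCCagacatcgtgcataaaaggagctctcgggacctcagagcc
Cxcl3, chr5:90785951-90786100, plus strand: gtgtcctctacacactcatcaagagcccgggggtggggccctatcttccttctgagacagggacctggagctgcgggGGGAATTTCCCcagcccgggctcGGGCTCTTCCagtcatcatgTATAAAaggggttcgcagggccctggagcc
Cxcl1, chr5:90891091-90891240, plus strand: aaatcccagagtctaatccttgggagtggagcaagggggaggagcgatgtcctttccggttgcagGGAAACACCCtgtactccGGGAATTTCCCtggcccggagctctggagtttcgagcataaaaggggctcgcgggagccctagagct
Csf2, chr11:54249900-54250049, minus strand: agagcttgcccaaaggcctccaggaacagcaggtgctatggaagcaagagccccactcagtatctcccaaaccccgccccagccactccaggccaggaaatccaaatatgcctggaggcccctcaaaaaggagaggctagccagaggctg
The Cxcl2, Cxcl3 and Cxcl1 stretches each hold GGGAATTTCC, which with the next base also matches on the opposite strand. Cxcl2 has a further match at GGGCTTTTCC, Cxcl3 at GGGCTCTTCC, and Cxcl1 a match on the opposite strand at GGAAACACCC. Of the 32851 promoter windows of 300 bases in the RefSeq table, 5.56% hold the NF-kappaB type motif, 7.81% TGANTCA and 13.6% TATAAA. The TATA motif was found in the Cxcl3 window alone among these 4, TGANTCA in none, and none of the 3 motifs in the Csf2 window. That window is placed on a RefSeq start 232 bases upstream of the GENCODE start. The bases just before the GENCODE start of Csf2 were therefore not searched, and whether they hold a match is not known here. These are matches of letters, not measured binding sites.

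After a filter on cells (at least 500 genes and 1000 UMIs, at most 10% mitochondrial UMIs), 9128 of 9398 IEL barcodes and 12407 of 13245 TIL barcodes remained. A UMI is a molecular tag that counts 1 captured transcript. The kept cells had medians of 6858.5 and 6465 UMIs, and 33 barcodes occurred in both libraries. T cells were cells with a UMI of Trdc, the constant segment of the delta chain, or of Cd3e, a signalling chain of the T cell receptor, and with fewer than 3 of the myeloid genes C1qa, C1qb, C1qc, Csf1r, Lyz2 and Cd68. There were 9080 of them in IEL and 12187 in TIL, of which 97.2% and 99.1% had a UMI of Trdc, the defining gene of the label, and 95.2% and 91.2% of Cd3e. Cells with 3 or more of the 6 genes, called myeloid cells, numbered 122 in TIL and 0 in IEL. At the limit of that rule, 64 TIL cells had 2 of the genes and 35 had 3. Of the 122, 84 also had a UMI of Trdc or Cd3e. No doublet caller was run, and whether these are droplets with more than 1 cell was not tested.

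The TIL T cells so defined were not free of other transcripts, and this bears on both chemokines. Among them, 67 cells had 3 or more of the neutrophil genes S100a8, S100a9, Retnlg, Cxcr2, Csf3r and Mmp8, against 0 in IEL. The 6 myeloid genes summed to 18.1 CPM (UMIs per 1000000 UMIs of the class) in TIL T cells and 2.62 CPM in IEL T cells, and the 6 neutrophil genes to 388 and 0.0437 CPM. In IEL T cells 1 of the 6 myeloid and 5 of the 6 neutrophil genes were at 0 UMIs. Nearly all of the IEL myeloid sum was Cd68, at 2.52 CPM in IEL T cells and 2.11 CPM in TIL T cells. Epithelial genes, whose cells can also make CXCR2 ligands, summed to 101 CPM in IEL and 27.7 CPM in TIL T cells, and fibroblast genes to 0.802 and 2.81 CPM. Each value is therefore also given for T cells with no UMI of any of the 12 myeloid and neutrophil genes, called marker-free T cells, a class chosen after the values were seen. It held 9561 TIL and 8903 IEL cells. The 92 TIL cells with 3 or more neutrophil genes and fewer than 3 myeloid genes, which include those 67 T cells, are called neutrophil-gene cells.

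Cxcl2 gave the most UMIs of the 3 genes in TIL T cells and few in IEL T cells. It had 28625 UMIs in TIL T cells, or 312.6 CPM (309 to 316), and 225 UMIs in IEL T cells, or 3.28 CPM (2.87 to 3.74). The level was 95.3-fold higher in TIL, a log2 ratio of 6.57 (6.39 to 6.77). In marker-free T cells it was 3.36 CPM for IEL and 207 for TIL, a 61.8-fold difference with a log2 ratio of 5.95 (5.76 to 6.14). Where the UMIs lay shows what the removed cells held. Of the 55395 Cxcl2 UMIs in TIL cells, marker-free T cells held 26.0%, the 67 T cells with 3 or more neutrophil genes 15.8%, and the 122 myeloid cells 35.8%. The marker-free T cells were 77.1% of the cells.

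Cxcl3 followed the same order at lower levels. It had 6007 UMIs in TIL T cells, or 65.6 CPM (63.9 to 67.3), and 6 UMIs, in 3 cells, among 9080 IEL T cells, or 0.0875 CPM (0.0321 to 0.190). The log2 ratio was 9.55 (8.43 to 11.00), and 8.90 (7.77 to 10.34) in marker-free T cells, where the levels were 42.7 and 0.0895 CPM. With 6 IEL UMIs the size of this ratio is known only to within several-fold. Marker-free T cells held 34.9% of the 8486 Cxcl3 UMIs of TIL cells, T cells with 3 or more neutrophil genes 21.3% and myeloid cells 20.8%.

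Csf2 did not share the direction of the chemokines. It was at 6.30 CPM (5.80 to 6.84, 577 UMIs) in TIL T cells and 8.67 CPM (7.99 to 9.40, 595 UMIs) in IEL T cells, a log2 ratio of -0.46 (-0.63 to -0.29). The marker-free classes gave 6.13 and 8.61 CPM and a log2 ratio of -0.49 (-0.67 to -0.31). These levels are under 20 CPM in both libraries. Of its 611 UMIs in TIL cells, 69.7% lay in marker-free T cells, 24.2% in T cells with a few of the 12 genes and 0% in myeloid cells. A single cell with neither T cell nor enough myeloid or neutrophil genes held 33 of them.

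Across the whole transcriptome, 6329 genes were at 20 CPM or more in either library's T cells. At least a 2-fold difference with an interval excluding no difference was found for 11% of them in the higher direction in TIL and for 13.6% in the lower. Cxcl2 and Cxcl3 were 2 of the higher ones, but they had been chosen on this contrast, and Csf2 was below the level needed to be counted. In marker-free T cells the shares were 10.8% and 13.5%.

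**Figure D1:**
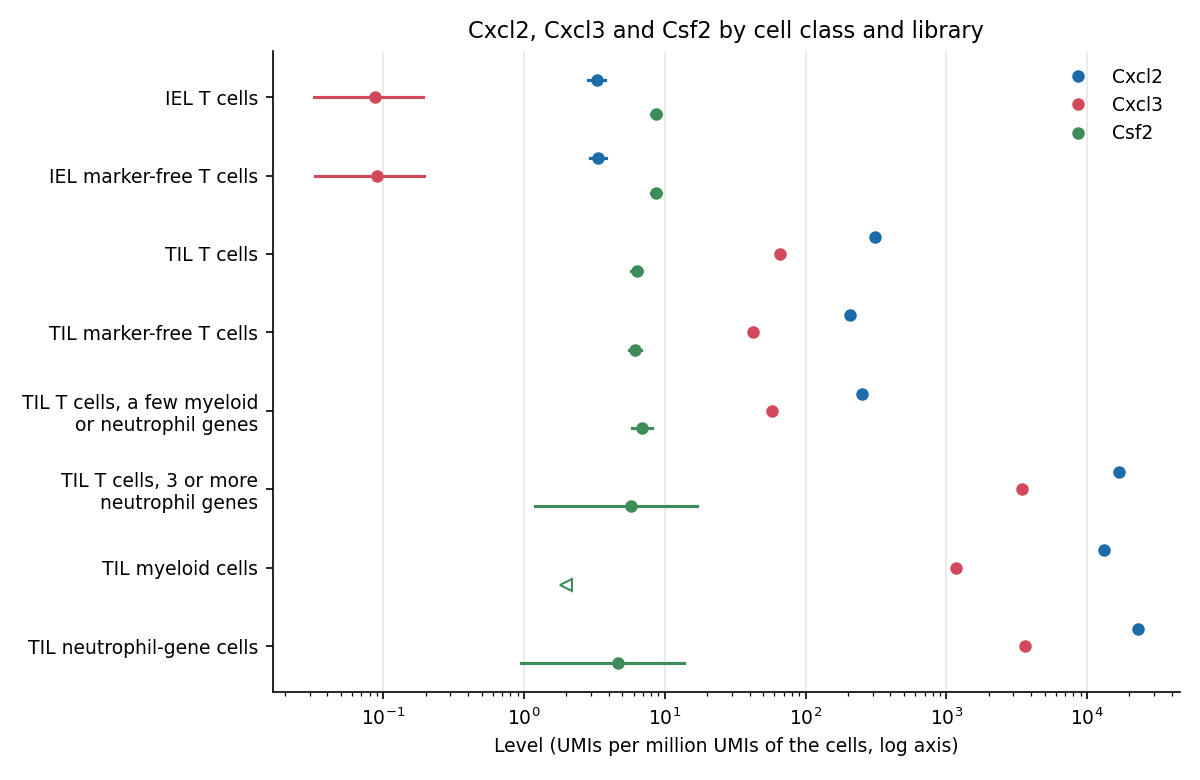
Level of each gene in CPM (log axis) by cell class and library. Points are class levels, bars are exact 95% Poisson intervals (counting error only), and the open triangle marks Csf2 in myeloid cells at the level of 3 UMIs, since it had 0. Cxcl2 runs from 3.28 CPM in IEL T cells through 312.6 CPM in TIL T cells and 13148 CPM in TIL myeloid cells to 22827 CPM in TIL neutrophil-gene cells. Csf2 lies between 4.65 and 8.67 CPM in every drawn class that has a UMI.

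**Figure D2:**
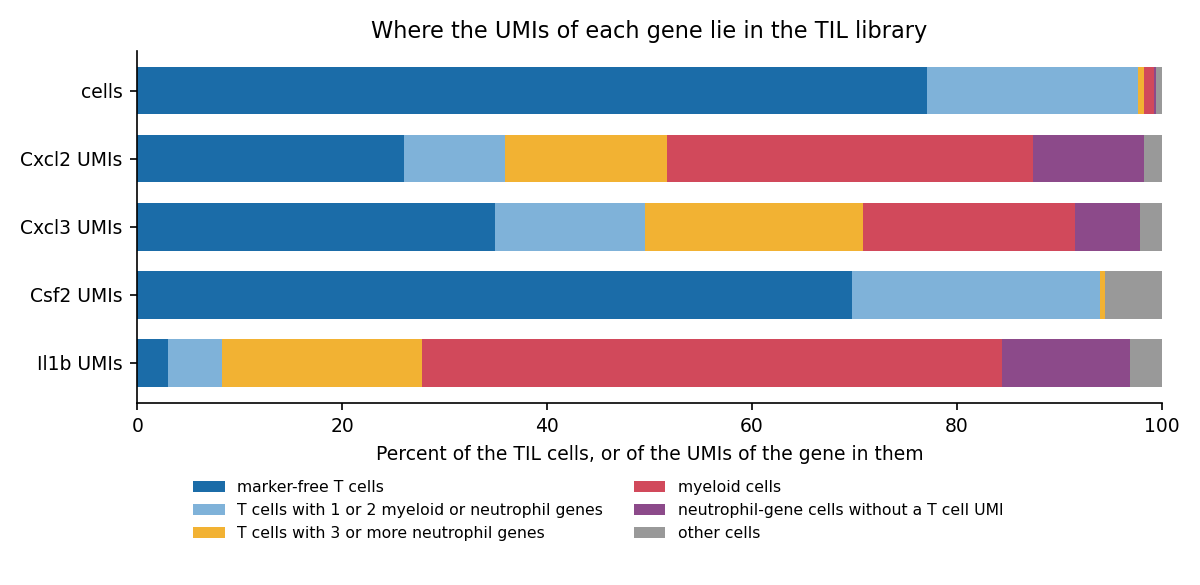
Percent of the TIL cells, and of the TIL UMIs of each gene, that fall in each cell class. Marker-free T cells (dark blue) are 77.1% of cells and hold 26.0% of Cxcl2, 34.9% of Cxcl3, 69.7% of Csf2 and 2.98% of Il1b UMIs.

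The highest levels of both chemokines lay in myeloid cells and in neutrophil-gene cells, the latter in part T cells by the original rule. Cxcl2 was at 13148 CPM (12965 to 13332) in myeloid cells and 22827 CPM (22460 to 23199) in neutrophil-gene cells. Against TIL T cells the myeloid level was 42.1-fold higher, a log2 ratio of T over myeloid cells of -5.39 (-5.42 to -5.37). Against marker-free T cells it was 63.4-fold higher, a log2 ratio of -5.99 (-6.02 to -5.96). Among 6136 genes at 20 CPM or more in either class, 14.1% were at least 2-fold lower in T than in myeloid cells and 14.7% higher. For marker-free T cells the shares were 14.2% and 14.8%. Cxcl3 was at 1169 CPM in myeloid cells and 3632 CPM in neutrophil-gene cells, and its log2 ratio of T over myeloid cells was -4.16 (-4.23 to -4.08).

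Csf2 was the reverse in myeloid cells. No Csf2 UMI was counted in the 122 myeloid cells, where a floor of 3 UMIs would be 1.99 CPM, or 2.46% of cells with a UMI. The exact 95% upper limits were 2.45 CPM and 2.98% of cells. Against that floor of 3 UMIs Csf2 was 3.17-fold higher in TIL T cells than in myeloid cells. The lower limit of the exact 95% interval was 2.57-fold. With myeloid cells taken at 2 marker genes, where Csf2 UMIs were counted, the log2 ratio was 1.76 with a wide interval (0.39 to 3.64). Neutrophil-gene cells had 3 Csf2 UMIs among 92 cells, or 4.65 CPM (0.958 to 13.6), an interval that holds the TIL T cell level of 6.30 CPM.

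The share of cells with a UMI was compared after each cell was thinned to 2000 UMIs, leaving out 96 TIL and 57 IEL T cells with fewer. Also left out were 14 of the 122 myeloid cells and 1 of the 92 neutrophil-gene cells, so the myeloid shares are over 108 cells. Cxcl2 was found in 10.6% (10.0 to 11.1) of TIL T cells, 9.91% (9.31 to 10.5) of marker-free TIL T cells and 0.233% (0.144 to 0.356) of IEL T cells. Without thinning the shares were 21.03%, 20.1% and 0.396%. It was found in 73.1% (63.8 to 81.2) of myeloid cells, whose median depth was 10719 UMIs before thinning, and in 75.8% (65.7 to 84.2) of neutrophil-gene cells. Most T cells therefore showed no Cxcl2 transcript at this depth. Cxcl3 was found in 2.75% (2.47 to 3.06) of TIL T cells, 2.48% of marker-free ones, 0.0111% of IEL T cells and 30.6% of myeloid cells. Csf2 was found in 0.943% (0.778 to 1.13) of TIL T cells and 1.45% (1.22 to 1.72) of IEL T cells, and 4.72% of IEL T cells had it without thinning.

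Transcripts freed from broken cells enter every droplet, so a T cell's chemokine UMI need not be its own. Free RNA of 1 source carries its genes in 1 ratio into every class, and Il1b, the IL-1 beta gene that macrophages and neutrophils transcribe, was used as the yardstick since no rule on cells used it. In marker-free TIL T cells there were 37.4 Cxcl2 UMIs per Il1b UMI (33.8 to 41.5), against 2.71 (2.64 to 2.79) in myeloid cells and 3.57 (3.45 to 3.70) in neutrophil-gene cells. In summed UMIs Cxcl2 thus stood in a far higher proportion to Il1b in marker-free T cells than in either other class. This sum does not describe the typical marker-free cell with Cxcl2. Cells with 1 UMI numbered 1120 for Cxcl2 and 230 for Il1b. The 299 cells with 10 or more Cxcl2 UMIs held 78.9% of the Cxcl2 UMIs of the class, and the ratio without them was not taken. In all TIL T cells, with the 67 neutrophil-gene cells among them, the ratio was 7.98 (7.71 to 8.27), and taking out cells with myeloid and neutrophil genes also takes out Il1b. For Cxcl3 the ratios were 7.70 (6.92 to 8.59), 0.241 and 0.568. Cxcl2 and Cxcl3 themselves stood at 4.86 to 1 in marker-free T cells, 11.2 to 1 in myeloid cells and 6.28 to 1 in neutrophil-gene cells. Against Cxcl1, Cxcl2 stood at 77.1 to 1 (66.7 to 89.5), 15.5 to 1 and 96.3 to 1 (82.1 to 113.7). By that gene the intervals of marker-free T cells and neutrophil-gene cells overlap. The 153 Cxcl1 UMIs of neutrophil-gene cells lay in 5 cells, however, and 3 of them held 148. In marker-free T cells 5 cells held 123 of the 187 Cxcl1 UMIs. The intervals take each UMI as a separate count, so they are too narrow for so few cells. The part of free RNA in the T cell levels was not tested.

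Several other transcripts of myeloid cells stood lower in T cells than the chemokines did. Log2 ratios of marker-free T over myeloid cells were -5.99 for Cxcl2 and -4.78 for Cxcl3. They were -8.30 for Cxcl1, -9.77 for Il1b, -10.14 for Ccl2, which recruits monocytes, and -10.57 for Ccl12, a related monocyte chemokine. Not every cytokine gene of myeloid cells lay lower than the members: Tnf was at -5.09 and Lif at -4.06. Marker-free cells hold none of the 12 genes by rule, which also lowers transcripts found with them, such as Il1b. Over all TIL T cells the ratios were -5.39 for Cxcl2, -4.16 for Cxcl3 and -6.95 for Il1b. Those of Cxcl1, Ccl2 and Ccl12 were -8.33, -9.20 and -10.60, and those of Tnf and Lif -5.08 and -4.10. Cxcl1, a close relative of both members, was at 850 CPM in myeloid cells, 237 CPM in neutrophil-gene cells and 2.69 CPM in marker-free TIL T cells. Cxcl2 was at 22827 CPM in neutrophil-gene cells and 207 CPM in marker-free TIL T cells. Against neutrophil-gene cells Cxcl1 therefore did not stand lower than Cxcl2, but 3 cells held most of the Cxcl1 UMIs of that class. Cxcl2 and Cxcl3 transcripts share between 61 and 108 stretches of 50 bases, depending on the annotated forms compared, so some reads could fit both, while neither shares one with Cxcl1 or Csf2.

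The UMIs were also unevenly spread over the T cells. Among the 9561 marker-free TIL T cells, 1120 had 1 Cxcl2 UMI, whereas the 299 cells (3.13%) with 10 or more held 78.9% of the UMIs and the highest had 480. For Cxcl3, 77 cells with 10 or more held 71.5%, with a highest value of 134. The few high cells therefore set the levels of both chemokines. Of the 299 cells, 297 had a UMI of Trdc, 273 of Cd3e, 278 of Il17a and 10 of Il1b. Over all marker-free TIL T cells the shares were 99.1% for Trdc, 91.0% for Cd3e, 81.0% for Il17a and 2.56% for Il1b. A UMI of Trdc or Cd3e was required by the class. The 299 cells were also deeper, with a median of 7682 UMIs against 6330. In each of the marker lists for B or plasma cells, epithelium, fibroblasts, endothelium and mast cells, at most 3 of the 299 cells had 2 or more genes. In IEL, 6 T cells had 10 or more Cxcl2 UMIs and held 67.6% of the 225, with a highest value of 53. Csf2 had 4 such cells in TIL, with 17.7% of its UMIs and a highest value of 42, and 2 in IEL.

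**Figure D3:**
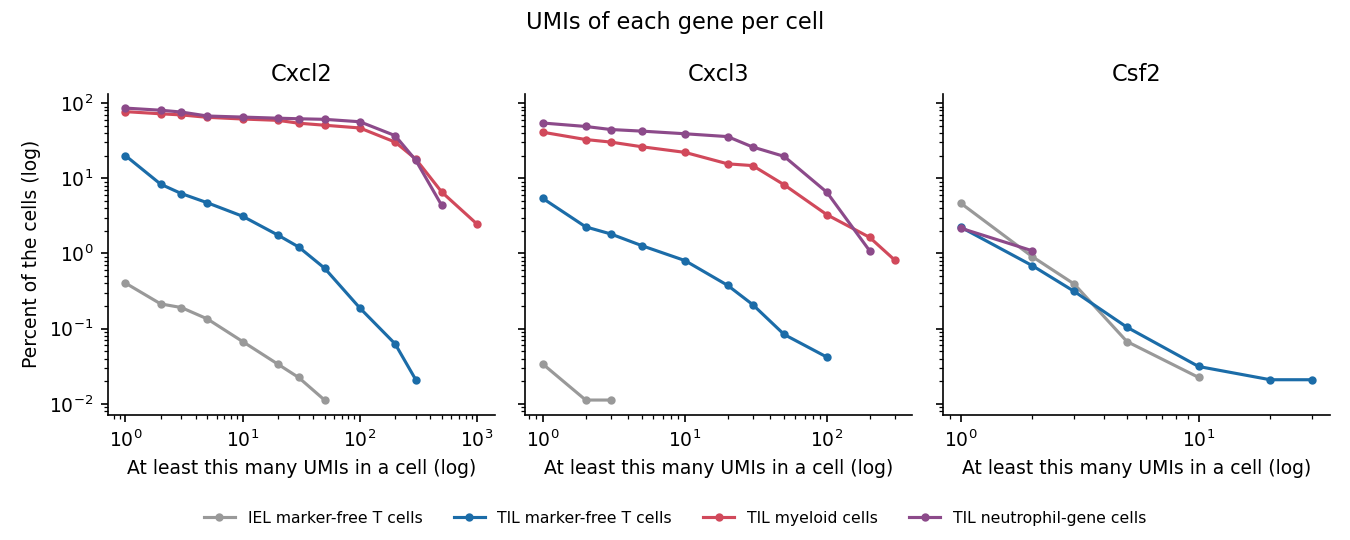
Percent of cells (log axis) with at least a given number of UMIs (log axis) of each gene, for marker-free T cells of both libraries and for TIL myeloid and neutrophil-gene cells. For Cxcl2 the TIL T cell curve lies above the IEL curve throughout and below both myeloid curves, with 3.13% of cells at 10 or more UMIs. For Csf2 the IEL curve starts higher, at 4.70% of cells with a UMI against 2.25% in TIL, and no myeloid cell is drawn.

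Cxcl2 was found more often in cells with Cxcl3 than in cells without it. In marker-free TIL T cells read at 2000 UMIs, 37.9% (31.6 to 44.4) of the 235 cells with Cxcl3 also had Cxcl2, against 9.19% (8.61 to 9.80) of those without. Csf2 was found in 1.49% (0.817 to 2.49) of cells with Cxcl2 and 0.820% (0.639 to 1.03) of those without, intervals that overlap, and in 2.98% (1.21 to 6.04) of cells with Cxcl3 and 0.833% (0.658 to 1.04) of those without. The last 2 intervals do not overlap, but the first rests on 7 cells with both genes. Over all TIL T cells these shares were 2.40% (1.04 to 4.68) and 0.902% (0.739 to 1.09), whose intervals overlap. Overlap of intervals does not show that 2 shares are equal. The share with Cxcl2 was also set beside 3 cytokine genes. For Il17f, which encodes an IL-17 chain, Cxcl2 was found in 20.6% (17.5 to 24.1) of cells with it and 9.17% (8.57 to 9.79) of cells without. For Il17a, found in 6069 of these cells, the shares were 11.8% (11.0 to 12.6) and 6.54% (5.73 to 7.42). Over all TIL T cells by the original rule they were 12.2% (11.4 to 12.9) and 7.70% (6.93 to 8.54), so the order held in both classes. Il22, which acts on epithelium, gave 21.7% (12.7 to 33.3) and 9.82%. In IEL, where 49 cells had Il17a, 7 of them (14.3%, 5.94 to 27.2) had Cxcl2, against 0.159% of the other cells. That IEL share rests on few cells, and its interval holds the TIL value.

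Cxcl3 was also found more often in cells with either IL-17 gene. In marker-free TIL T cells Cxcl3 was found in 7.20% (5.28 to 9.55) of cells with Il17f and 2.15% (1.86 to 2.48) of cells without. With and without Il17a its shares were 2.98% (2.57 to 3.44) and 1.58% (1.19 to 2.06). Csf2 was found in 1.47% (0.676 to 2.78) of cells with Il17f and 0.846% (0.666 to 1.06) of those without, and in 0.972% (0.741 to 1.25) and 0.733% (0.475 to 1.08) with and without Il17a. These intervals of Csf2 overlap, which does not show that the shares are equal, and a difference was not tested.

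The genes whose counts were most like those of Cxcl2 differed between the 2 ways of taking T cells. Over 12091 TIL T cells, with cells sharing 1 library and depth set equal, the highest Pearson correlations with Cxcl2 were 0.43 for Cxcl3, 0.40 for Il1b, 0.39 for S100a9, 0.39 for Cd14 and 0.38 for S100a8. Apart from Cxcl3 these are myeloid genes. Over 9480 marker-free cells they were 0.26 for Cxcl3, 0.15 for Il17f, 0.14 for Srgn, 0.13 for Nfkbia, an NF-kappaB inhibitor and target, and 0.13 for Il17a. For Cxcl3 the order began with Cxcl2 at 0.26 and Il17f at 0.12, followed by Srgn, Il2ra and Slfn2. For Csf2 no gene went above 0.064 in either set. Lmna led over all T cells and Cxcl3, at 0.064, over marker-free cells, with Lmna, Fosb and Aimp2 listed in both. Counts this sparse keep correlations low, so these values do not settle whether there is a pattern.

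Other genes of the same roles were counted from lists whose choice was made with earlier results known, in marker-free T cells, TIL over IEL. Of the 5 CXCR2 ligands, Cxcl2 and Cxcl3 were at 20 CPM or more. Cxcl1 had 187 UMIs in TIL and 8 in IEL, Cxcl5 27 and 2, and Ppbp 7 and 0. Of the 6 colony-stimulating and growth factors none reached 20 CPM: Csf2 led the list, Csf1 had 38 and 13 UMIs, and Il3, the neighbour of Csf2, had 0 in both libraries. Of the 9 CC chemokines for myeloid cells, 2 were measured and both were lower in TIL, a direction found for 13.5% of all genes measured. For Ccl3 the IEL level was 93.3 CPM and the TIL level 9.998 CPM, log2 -3.22 (-3.34 to -3.11). For Ccl4 the IEL level was 706 CPM and the TIL level 17.9 CPM, log2 -5.31 (-5.39 to -5.22). Both are typical products of cytotoxic lymphocytes. Ccl20, the CCR6 ligand, had 179 UMIs in TIL and 0 in IEL.

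Most of the cytokine genes were too low to be measured. Of 8 in the list 3 were measured and all 3 were higher in TIL, against 10.8% of all genes measured, with log2 ratios of 8.57 for Il17a, 10.69 for Il17f and 5.53 for Il22. Tnf, a general inflammatory cytokine, was at 12.7 and 13.3 CPM. Of 11 inducing receptors and regulators 10 were measured, 7 were higher and 0 lower, against 10.8% and 13.5% of all genes measured, with a median log2 ratio of 2.22 against -0.10 over all genes measured. The IL-1 receptor Il1r1 had a log2 ratio of 6.38, the IL-23 receptor Il23r 6.01 and the IL-18 receptor Il18r1 5.05. Il1rap, the chain that pairs with Il1r1, was below 20 CPM in both libraries, at 0.63. Among NF-kappaB genes, Nfkb1 was higher at 2.32, while Rela at 0.86, Rel at 0.71 and Nfkbiz at 0.82 stayed under 2-fold. Bhlhe40, a regulator of Csf2 in T cells, was at 1.11.

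Receptors and message decay completed the lists. Of 10 receptors for these ligands 2 were measured, Ccr1 with a log2 ratio of 9.11 and Ccr2 with 5.83, both higher, as were 10.8% of all genes measured. The GM-CSF receptor chain Csf2rb had 139 UMIs in marker-free TIL T cells and 0 in IEL, and was at 376 CPM in myeloid cells. Csf2ra, the other chain, had a level of 12.4 CPM in IEL cells and 4.59 in TIL cells. Cxcr2, Csf3r and Csf1r helped to define the classes and are not read here. Of 5 genes whose products degrade chemokine and Csf2 messages or restrain NF-kappaB, 1 was higher, Zc3h12a (the RNase regnase-1) at 1.69, and 0 were lower. Zfp36, which encodes tristetraprolin, had a level of 102 CPM in IEL cells and 56.7 in TIL cells, log2 -0.84.

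**Figure D4:**
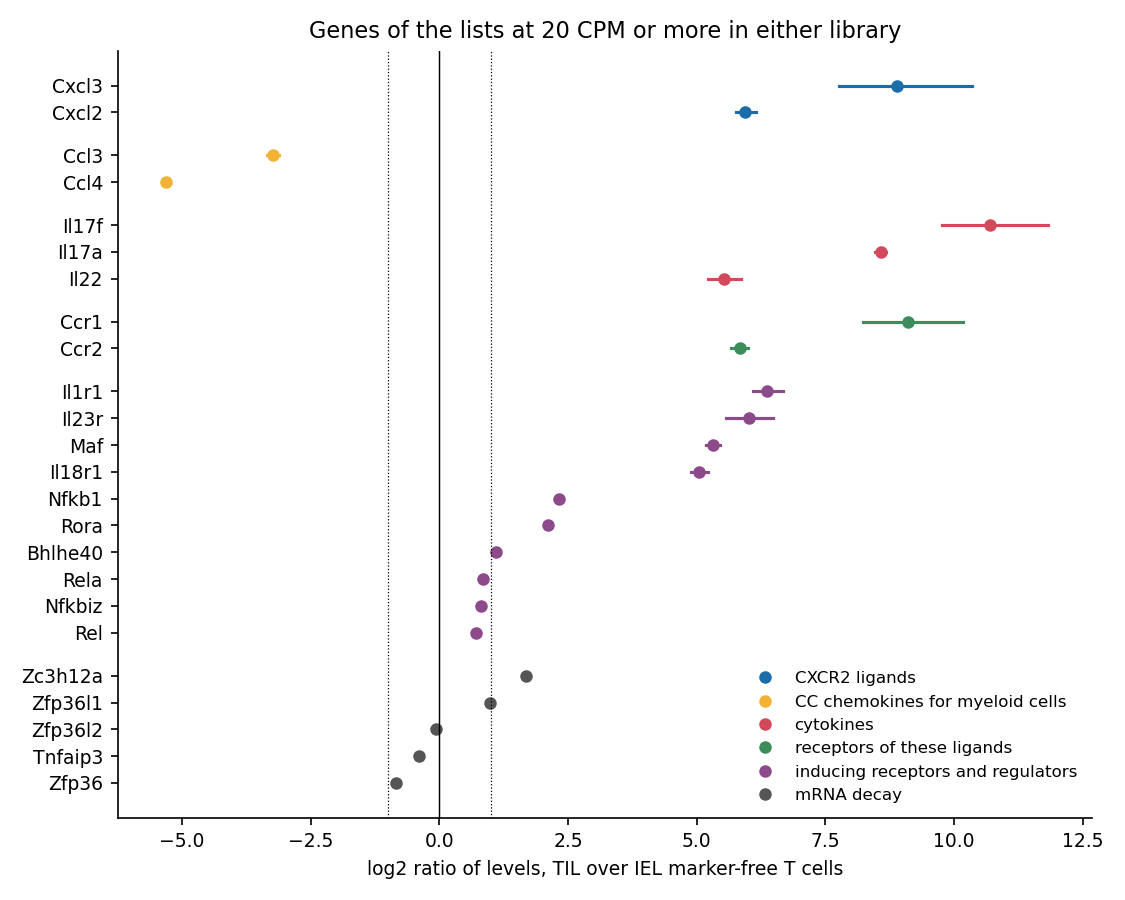
Log2 ratio of levels, TIL over IEL marker-free T cells, for list genes at 20 CPM or more in either library, with exact 95% intervals and dotted lines at 2-fold. Cxcl3 (8.90) and Cxcl2 (5.95) lie on the side of Il17a (8.57) and Il1r1 (6.38), and Ccl3 (-3.22) and Ccl4 (-5.31) on the other.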

How the data were processed

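Single-cell 3′ libraries were made with 10x Genomics chemistry, per the labels' protocols. The deposited matrices hold raw UMI counts per gene and barcode. Cell Ranger 6.1.1 and mm10 are named in the submitters' processing notes; their filters and settings, and any removal of free RNA or doublets, are not given in the sources used here. Counting at 3′ ends carries no length factor. The members and lists were chosen with earlier results of these data known, and named genes were the members, the lists and the 5 genes most correlated with each member (genes in at least 1% of cells). UMIs were summed per class and given as CPM. Ratios have exact conditional 95% intervals, CPM Poisson intervals and shares Clopper-Pearson intervals. Genes were counted as 2-fold apart at 20 CPM or more in either class. This rule was tried on simulated counts with counting error only, which cannot show errors from differences between cells or libraries. Cells were thinned at random to 2000 UMIs without replacement. Floors are 3 UMIs. No test or replicate exists with 1 library per group. Python 3, NumPy and SciPy were used. Total depth was 69414155 UMIs in IEL and 94953893 in TIL. Alternatives were other cell filters, T cell and myeloid rules, thinning depths and weights. Some gene list results are not reported here.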

Additional observations from a re-analysis of the deposited data

How the results depend on the processing

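Of 125 values recomputed under other settings, 85 stayed within the interval of the value given (counts: within 1.5 times) and 40 moved outside it. Of the log2 ratios among them 0 changed sign, while shares and counts of genes have no sign to change. Alternatives that gave no value above the floor for Csf2 against myeloid cells are not among the 125. Intervals of summed counts are narrow, so small shifts leave them.

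The log2 ratio of Cxcl2, TIL over IEL T cells (6.57), ran from 5.95 with no UMI of the 12 myeloid and neutrophil genes to 7.13 with the overlapping cells kept as T cells; it was 6.24 with at least 2 UMIs of Trdc and Cd3e, 6.05 with no UMI of the myeloid genes and 6.06 with fewer than 3 neutrophil genes. For Cxcl3 and Csf2 all 10 alternatives each stayed within the interval.

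The log2 ratio of T over myeloid cells was, for Cxcl2, -5.36 without a cell filter, -5.56 with the stricter one, -5.72 with 2 T cell UMIs, -5.42 with Trdc alone, -4.84 with overlap kept, -5.88 without myeloid UMIs, -5.99 in marker-free cells, -5.91 with fewer than 3 neutrophil genes, -5.20 with cells weighted equally, and -5.56, -5.01 and -5.68 with myeloid cells taken at 2 genes, 4 genes or without a T cell UMI. For Cxcl3 it was -4.29 with the stricter filter, -4.50 with 2 T cell UMIs, -3.95 with overlap kept, -4.76 without myeloid UMIs, -4.78 in marker-free cells, -4.66 with fewer than 3 neutrophil genes, -4.33 with equal weights, and -4.69, -3.00 and -4.93 under the 3 myeloid rules. The value for Csf2 against the floor of 3 UMIs (log2 1.66, exact 95% lower limit 1.36) was 1.22 at 4 myeloid genes (limit 0.91), where fewer UMIs were summed. At 2 myeloid genes the ratio itself was 1.76 (0.39 to 3.64). No value above the floor could be given for Csf2 against myeloid cells without a T cell UMI, and none with cells weighted equally.

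Shares of TIL T cells at 1000 UMIs were 7.20% for Cxcl2, 2.01% for Cxcl3 and 0.525% for Csf2, and without thinning 21.03%, 5.88% and 2.49%, since fewer or more UMIs are read. The Cxcl2 share was 9.91% in marker-free cells and the Cxcl3 share 2.46% without myeloid UMIs.

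Genes 2-fold higher or lower numbered 1069 and 1659 at 5 CPM or more and 456 and 420 at 50 CPM or more, against 695 and 860, since the filter sets how many genes are tested.

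No paired analysis was possible because each group is 1 library. Each group being 1 library, TIL and IEL cannot be told apart from differences between 2 preparations. Levels of Csf2 near 6 CPM and Cxcl3 in IEL, at 6 UMIs, limit what can be compared.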
